A study of Rattus norvegicus with 12 samples.

Results

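The levels of 9 genes of central myelin and the mature oligodendrocyte were followed in rat lumbar spinal cord after spinal cord injury (SCI): Mbp, Mobp, Mag, Mog, Cnp, Opalin, Ninj2, Aspa and Myrf. They were taken by symbol from a table of 23526 genes, each had 1 row there, and all 9 passed the filter on low counts that left 18714 genes for testing. The rule takes them by symbol and uses no values, but they were chosen with earlier results of these data known. The tissue was lumbar cord, segments L3 to L5, of Rattus norvegicus, with 3 samples taken 3 days after SCI, 3 at day 7, 3 at day 14 and 3 from sham animals labelled day 0. The labels give no strain, age, sex or injury site, do not say whether a sample is 1 animal, and hold no sham sample of a later day. A p-value here reflects only how far these samples spread, part of which may be technical.

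Myelin in the central nervous system is made by oligodendrocytes, which wrap axons in many layers of their own membrane. Mbp and Mobp code for proteins of the compacted layers, Mag and Mog for proteins at the innermost and outermost surfaces, and Cnp and Opalin for proteins of the uncompacted loops. Aspa codes for the enzyme that splits N-acetylaspartate, Ninj2 for a membrane adhesion protein, and Myrf for the transcription factor that drives the myelin programme. Schwann cells, which myelinate the nerve roots, also make Mbp, Mag and Cnp, whereas Mog, Opalin and Myrf belong to oligodendrocytes.

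Of the 9 genes, 4 passed edgeR's test as lower at day 3 than in sham, beside 1.2% of all tested genes: Ninj2, Opalin, Aspa and Cnp. These calls depended on single libraries, as described below. The promoters of the 4 are shown because they passed the same threshold, and a shared cause was not tested. Each runs from 250 bases before to 50 bases after the gene's start, read 5′ to 3′ on the gene's own strand, from RefSeq on build GRCr8. The Cnp window is chr10:86011254-86011553 on the plus strand, the Opalin window chr1:249858141-249858440 on the minus strand, the Ninj2 window chr4:154978551-154978850 on the plus strand and the Aspa window chr10:58438988-58439287 on the minus strand. Capitals mark matches, on either strand, to the SOX core ACAAAG or ACAATG, the E-box CAGCTG or CAGATG, the MYRF motif CTGGCAC or CTGGTAC, the GC box GGGCGG, or TATAAA. Adjacent capitals can be overlapping matches, as at the first TATAAA of Aspa.
Cnp: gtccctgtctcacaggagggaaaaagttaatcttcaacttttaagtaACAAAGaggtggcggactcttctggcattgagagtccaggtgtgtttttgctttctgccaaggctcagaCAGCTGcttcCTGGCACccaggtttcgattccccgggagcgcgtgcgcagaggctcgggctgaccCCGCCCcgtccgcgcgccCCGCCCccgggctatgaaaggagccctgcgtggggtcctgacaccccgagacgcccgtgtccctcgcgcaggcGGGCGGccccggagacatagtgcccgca
Opalin: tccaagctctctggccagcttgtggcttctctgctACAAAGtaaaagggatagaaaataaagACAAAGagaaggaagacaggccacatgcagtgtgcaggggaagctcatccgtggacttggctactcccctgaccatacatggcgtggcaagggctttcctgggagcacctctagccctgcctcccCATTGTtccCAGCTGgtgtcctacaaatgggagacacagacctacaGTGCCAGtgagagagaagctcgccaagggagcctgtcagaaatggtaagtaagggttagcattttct
Ninj2: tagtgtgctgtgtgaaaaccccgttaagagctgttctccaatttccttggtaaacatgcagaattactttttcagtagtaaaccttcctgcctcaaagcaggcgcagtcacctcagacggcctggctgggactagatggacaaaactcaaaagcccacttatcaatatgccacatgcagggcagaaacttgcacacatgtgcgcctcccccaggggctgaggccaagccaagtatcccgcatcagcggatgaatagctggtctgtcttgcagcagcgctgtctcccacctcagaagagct
Aspa: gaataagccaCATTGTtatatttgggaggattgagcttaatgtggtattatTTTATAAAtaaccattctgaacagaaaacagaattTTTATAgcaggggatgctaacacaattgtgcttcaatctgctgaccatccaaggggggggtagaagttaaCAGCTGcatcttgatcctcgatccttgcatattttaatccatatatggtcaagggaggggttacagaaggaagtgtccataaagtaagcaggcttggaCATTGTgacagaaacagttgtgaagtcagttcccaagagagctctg

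The 4 windows differed in base composition. Cnp had 63.3% G and C with 24 CpG sites and 3 GC boxes, while Aspa had 40.3% with 1 CpG site and 3 TATAAA matches, and the median of all promoters was 51.7% with 7 CpG sites. The letters CTGGCAC were in the Cnp and Opalin windows and in that of Mag, which makes 3 of the 7 genes with a RefSeq promoter in the table, against 4.75% of 33469 promoters. ACAAAG was in 4 of the 7, namely Mag, Mobp, Cnp and Opalin, against 18.8% of promoters, with 8 copies in Mobp. CAGCTG was in Cnp, Opalin and Aspa, against 15.1%, and ACAATG was in Opalin and Aspa, against 13.2%. CAGATG and CTGGTAC were in 0 of the 7, against 16.6% and 2.16% of promoters. GGGCGG was in Mbp and Cnp, against 33.1%, and TATAAA in Aspa, against 14.2%. The Ninj2 window held none of these letters. These are matches of letters, and binding was not measured. Mog and Myrf had no entry. Mbp had 2 entries, of which only the first was read, whereas the 33469 promoters include every entry.

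The 12 libraries held between 63010295 and 79072710 counted reads. CPM is a gene's count per 1000000 counts of its library. In bulk tissue, fewer oligodendrocytes and less RNA per oligodendrocyte cannot be told apart. The makeup of the libraries varied within groups. The 14 markers of Schwann cells, the myelinating glia of nerve roots, summed to 16377 to 61932 CPM at day 3 and 6327 to 49630 CPM in sham, with none at 0. They summed to 2569 to 21757 CPM at day 7 and 15950 to 29424 CPM at day 14. Their mean log2 CPM, set against the sham mean, was highest in SCI day 3 replicate 3, at 2.69, and in sham replicate 2, at 1.55, and lowest in SCI day 7 replicate 2, at -1.35. All 14 had a positive log2 fold change at day 3, with a median of 1.16, and 0 passed edgeR's test. Slc12a5, the chloride transporter of mature neurons, was at 33.2, 389 and 30.3 CPM at day 3 and at 456 to 599 CPM in sham. The 14 neuron markers all had a negative log2 fold change at day 3, with a median of -1.67, and 0 passed. Scn10a, a sodium channel gene of the dorsal root ganglia, was at 19.9 CPM in SCI day 3 replicate 2 and at 78.8 and 131 CPM in SCI day 14 replicates 1 and 2, with at most 1.06 CPM elsewhere. The erythrocyte markers summed to 6182 CPM in SCI day 7 replicate 1, against 178 to 580 CPM in sham, and the skeletal muscle markers to 166 CPM in SCI day 7 replicate 2, with at most 14.0 CPM elsewhere. Mitochondrial genes held 5.62% and 5.43% of counts in SCI day 3 replicates 1 and 3 and 6.47% in SCI day 14 replicate 2, against 8.004% to 9.80% in sham. The part of these differences in the results below was not tested, apart from the libraries left out and the covariate described with them.

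**Figure D1:**
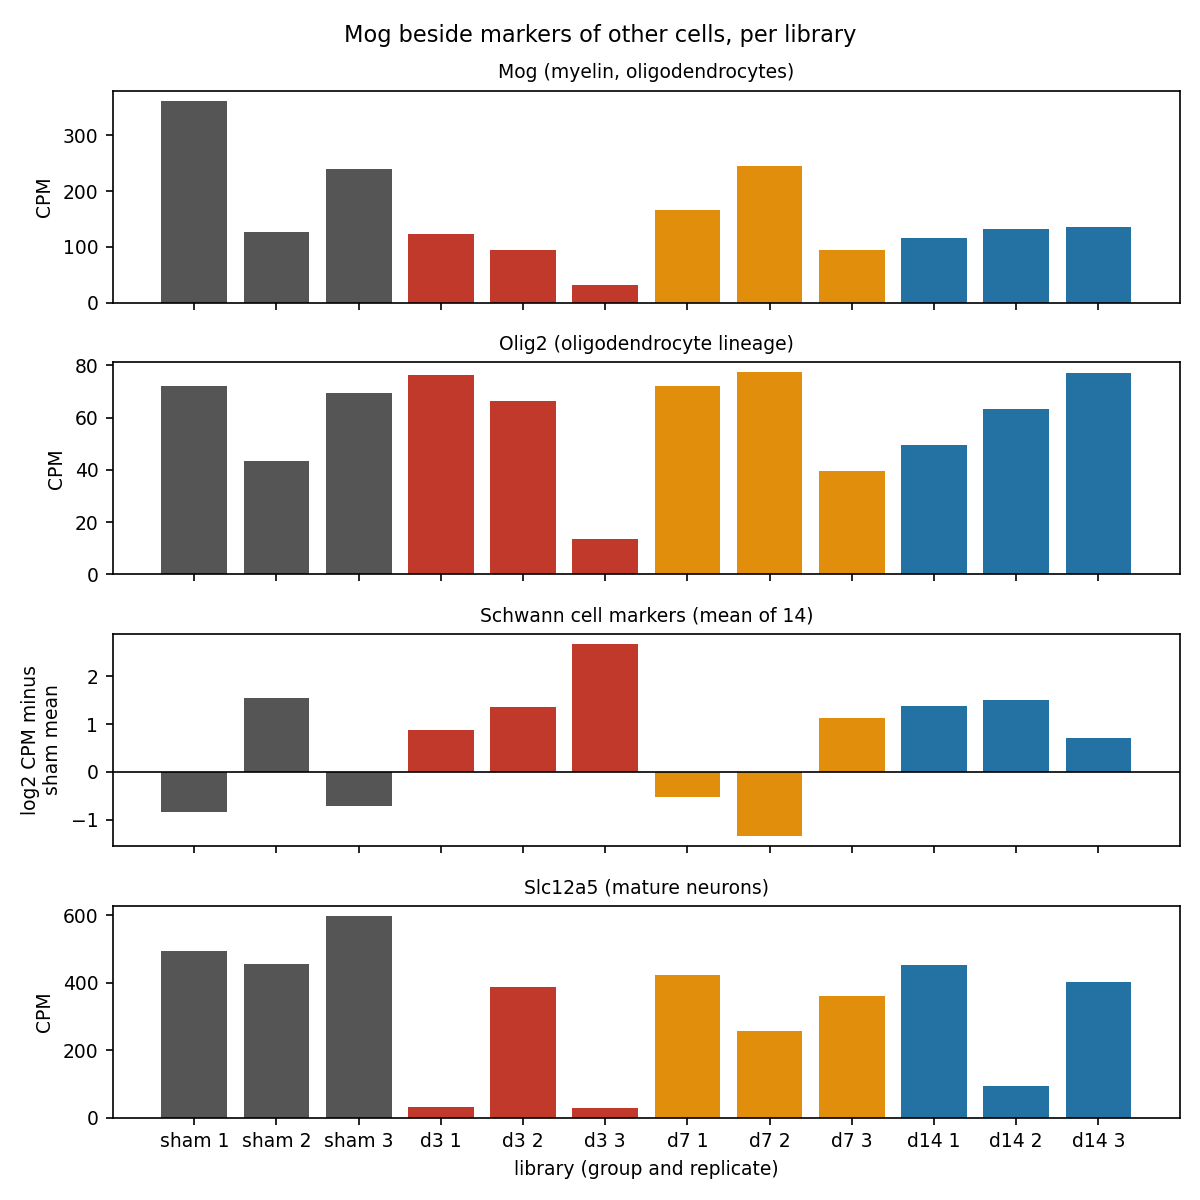
CPM of Mog, Olig2 and Slc12a5, and the mean log2 CPM of the 14 Schwann cell markers minus its sham mean, in each of the 12 libraries (x axis, group and replicate; y axes, CPM or log2 difference, bars from 0). Mog and Olig2 were lowest in SCI day 3 replicate 3, where the Schwann cell markers stood at 2.69, and Slc12a5 was at 33.2 and 30.3 CPM in SCI day 3 replicates 1 and 3.

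Levels of the 9 genes can be compared per length of gene with FPKM, the count scaled by gene length and library total. By the mean of the sham libraries the order was Mbp at 7694 FPKM, Mobp at 896, Cnp at 676, Mag at 370, Mog at 134, Opalin at 72.0, Myrf at 49.97, Aspa at 18.6 and Ninj2 at 15.9 FPKM. The sham ranges of neighbours in this order were separate for Mbp and Mobp, for Mag and Mog, and for Myrf and Aspa, and the others overlapped. Each neighbouring pair kept its order in all 12 libraries except Mobp above Cnp, which held in 11, and Opalin above Myrf, which held in 5, among them the 3 sham libraries. Together the 9 genes took 2.07% to 4.74% of all counts of a library, and Mbp alone took 1.60% to 3.68%.

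At day 3, 4 of the 9 genes passed edgeR's quasi-likelihood test with a Benjamini-Hochberg adjusted p under 0.05, all lower than in sham, beside 1.2% of all tested genes that passed as lower, 5.5% that passed as higher and 6.7% in either direction. At an unadjusted p under 0.05 there were 6 of the 9, Mog and Mag being added, beside 14.6% of genes lower. All 9 had a negative log2 fold change, although Mobp was at 0.15 without sham replicate 1, beside 48.1% of genes, and their median was -1.02, against 0.03 over all 18714 genes tested. For 5 of the 9, Mog, Cnp, Opalin, Ninj2 and Aspa, every day 3 library lay below every sham library, as did 15.9% of all genes. In the following, ± after a log2 fold change is its standard error and ± after a mean is the SD of 3 libraries.

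Ninj2 had the lowest p of the 9. It was at 4.74, 5.504 and 4.17 CPM at day 3, against 19.3, 11.4 and 15.0 CPM in sham. The 3 day 3 values were close together and all below sham. The log2 fold change was -1.71 ± 0.32 (adjusted p = 0.0332 in edgeR), from means of 4.80 ± 0.671 CPM at day 3 and 15.2 ± 3.97 CPM in sham (SD, n = 3 each).

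Opalin, a marker of fully differentiated oligodendrocytes, was at 73.9, 91.0 and 32.9 CPM at day 3, against 250, 138 and 215 CPM in sham. Its groups did not overlap, and replicate 3 was the lowest library at day 3. The log2 fold change was -1.67 ± 0.39 (adjusted p = 0.0398 in edgeR), from means of 65.9 ± 29.9 CPM at day 3 and 201 ± 57.1 CPM in sham.

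Cnp, the cyclic nucleotide phosphodiesterase of uncompacted myelin, was at 867, 735 and 628 CPM at day 3, against 2094, 1197 and 1605 CPM in sham. Again no day 3 library reached the lowest sham library. The log2 fold change was -1.18 ± 0.30 (adjusted p = 0.0458 in edgeR).

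Aspa had a smaller change and little spread. Its 3 day 3 libraries were at 62.99, 64.3 and 61.4 CPM, against 107, 96.9 and 85.8 CPM in sham. The values at day 3 lay within a few percent of each other. The log2 fold change was -0.66 ± 0.16 (adjusted p = 0.0436 in edgeR), from means of 62.9 ± 1.43 CPM at day 3 and 96.7 ± 10.7 CPM in sham.

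Mog, the glycoprotein on the outer surface of the sheath, was at 122, 95.0 and 30.8 CPM at day 3, against 363, 126 and 240 CPM in sham. Its log2 fold change was -1.62 ± 0.51, with wider spread, and it missed the threshold (adjusted p = 0.0695 in edgeR). The highest day 3 library and the lowest sham library, replicate 2, nearly met.

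Mag, the adhesion protein that faces the axon, was at 807, 523 and 233 CPM at day 3, against 1384, 634 and 1018 CPM in sham, and the groups overlapped. Its log2 fold change was -1.02 ± 0.41 (adjusted p = 0.114 in edgeR).

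The compact myelin genes differed least. Mbp, which holds the cytoplasmic faces of the membrane together, was at 19924, 18649 and 29497 CPM at day 3, against 36781, 20531 and 25902 CPM in sham. Mobp was at 4282, 2703 and 4081 CPM at day 3, against 6015, 2287 and 4276 CPM in sham. For both, the day 3 values lay inside or close to the sham range. The log2 fold change was -0.32 ± 0.32 for Mbp (adjusted p = 0.493 in edgeR) and -0.23 ± 0.38 for Mobp (adjusted p = 0.688 in edgeR).

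Myrf, the transcription factor among the 9, was at 386, 224 and 77.6 CPM at day 3, against 375, 178 and 322 CPM in sham. Replicate 1 of day 3 stood above the sham range and replicate 3 below it. The log2 fold change was -0.42 ± 0.47 (adjusted p = 0.547 in edgeR).

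**Figure D2:**
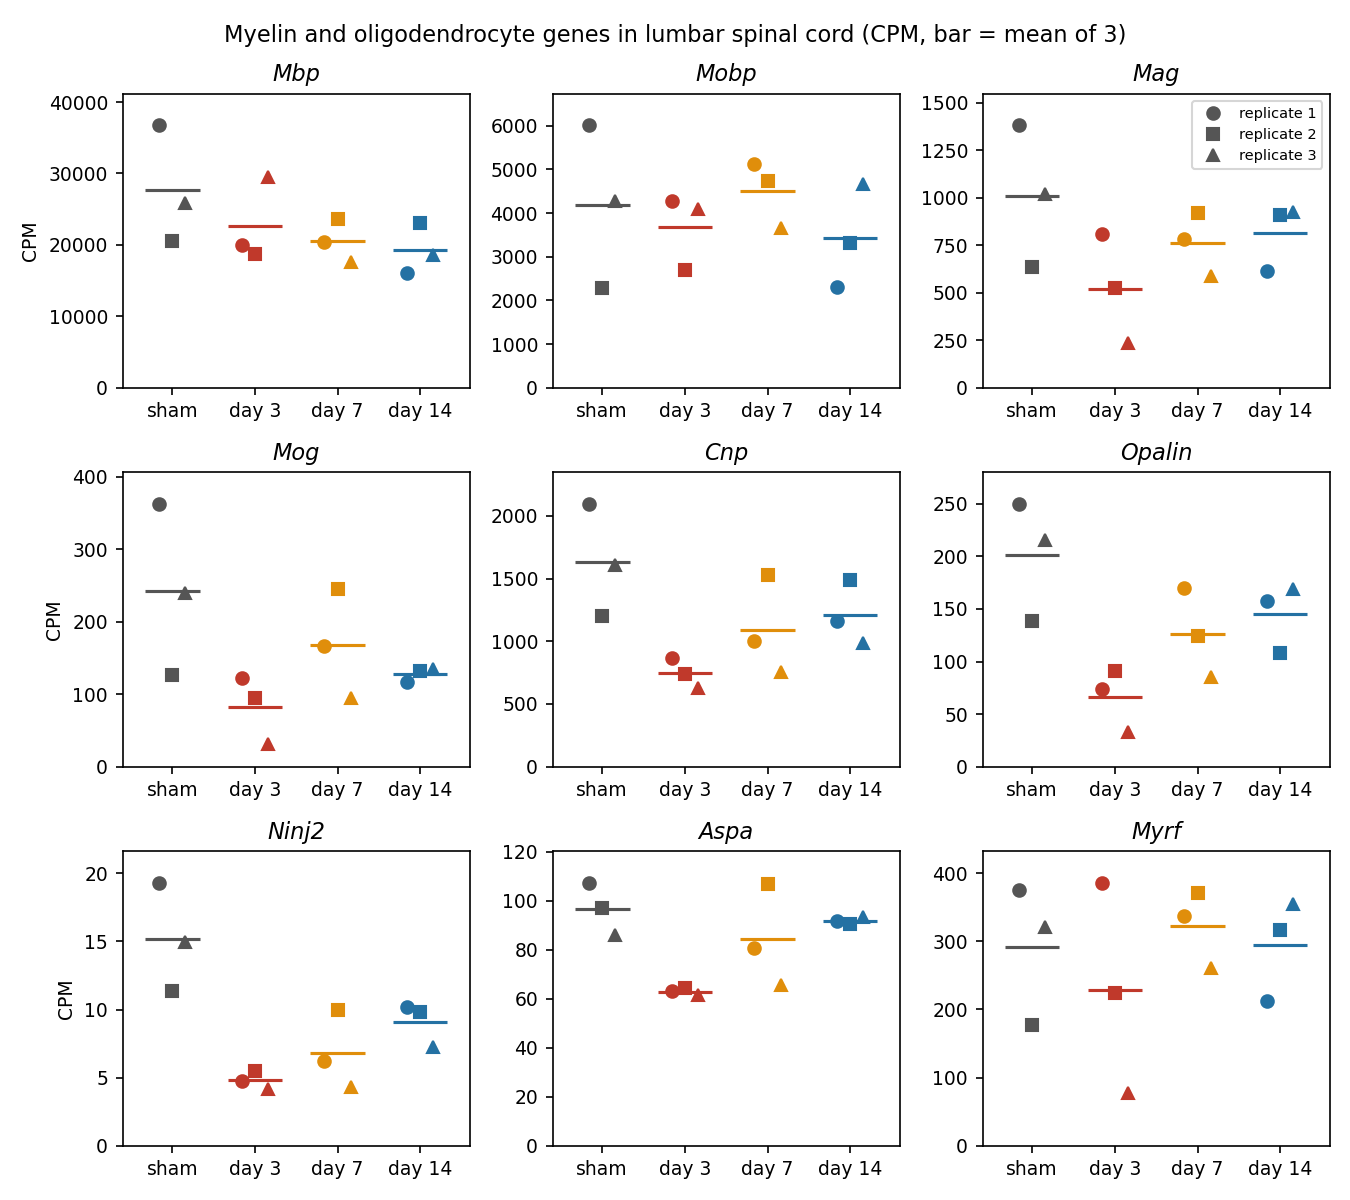
CPM of each of the 9 genes in every library (x axis, group; y axis, CPM; each point is 1 library, shaped by replicate). For Ninj2, Opalin, Cnp, Aspa and Mog the 3 day 3 libraries lie below the 3 sham libraries, whereas Mbp, Mobp, Mag and Myrf overlap.

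The 4 calls at day 3 depended on single libraries, as did the count over all genes, which was 1254 and ranged from 1 to 7087 with 1 library left out. None of the 9 was called without sham replicate 1 or 3, SCI day 3 replicate 1 or 3, SCI day 7 replicate 2 or SCI day 14 replicate 3, 1 was called without SCI day 14 replicate 1 or 2, 2 without SCI day 7 replicate 1, 3 without sham replicate 2, 4 without SCI day 7 replicate 3 and 5 without SCI day 3 replicate 2. The count was also 0 without sham replicate 2 and SCI day 3 replicate 3, the 2 libraries richest in Schwann cell markers. It was 0 without SCI day 3 replicates 1 and 3, the 2 with the fewest neuron markers, and 0 with the Schwann cell score as a covariate. It was 4 without the 3 libraries with the most Scn10a, where 6787 genes were called in all. The 5 called without SCI day 3 replicate 2 were among 7087 genes. Far more genes were thus called in those settings than the 1254 of the main fit. Where 1 library was left out and none of the 9 was called, 1 to 18 genes were called in all. DESeq2 and limma voom each called 6, the same 4 with Mog and Mag. They also called more genes in all, 5150 and 6232, against 1254 by edgeR.

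By CPM, replicate 3 of day 3 was the lowest of the 12 libraries for 7 of the 9 genes, and sham replicate 1 the highest for 8. Relative to the mean of day 3 replicates 1 and 2, replicate 3 was at 0.254 times for Myrf, 0.283 for Mog, 0.351 for Mag and 0.399 for Opalin, but at 0.784 for Cnp, 0.813 for Ninj2, 0.965 for Aspa, 1.17 for Mobp and 1.53 for Mbp. Sham replicate 2, the other library rich in Schwann cell markers, was at 0.419 times the mean of the other two sham libraries for Mog and at 1.004 for Aspa. The remaining 7 genes lay between these values. Mog, Myrf, Mag and Opalin were thus low in both libraries relative to the others of their group. In sham replicate 2, Myrf was at 0.510 times, Mag at 0.528 and Opalin at 0.594. Cnp and Ninj2 were also below the others in both, and Aspa was close to the others of its group in both.

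**Figure D3:**
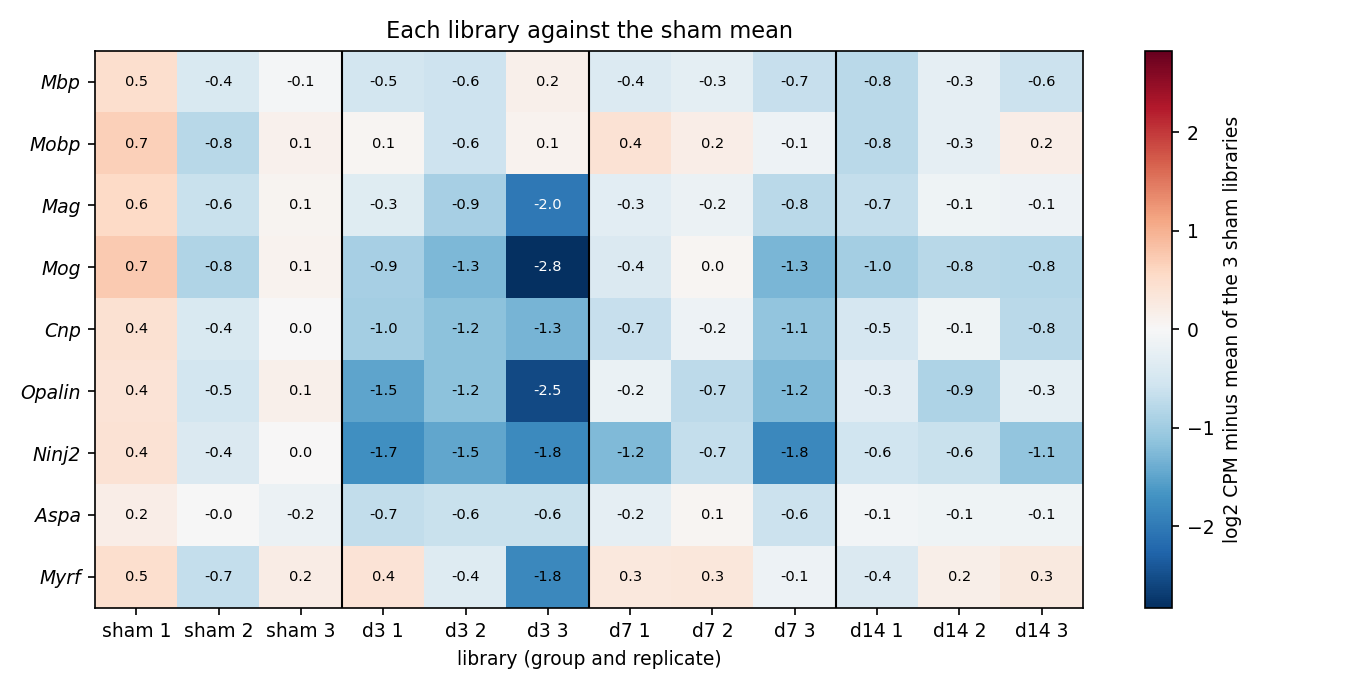
Log2 CPM minus the mean of the 3 sham libraries, for each of the 9 genes (rows) in each library (columns); blue is below the sham mean and red above it. The values carry the TMM scaling of the fit. SCI day 3 replicate 3 has the lowest value for Mog, Mag, Cnp, Opalin and Myrf.

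At day 7, 0 of the 9 genes passed edgeR's test, as against 0% of all genes that passed as lower and 0.016%, or 3 genes, in either direction. At an unadjusted p under 0.05 there was 1, Ninj2, beside 2.13% of genes lower. DESeq2 and limma voom each called Ninj2, among 513 and 276 genes called in all. Log2 fold changes were negative for 7 of the 9, beside 52.6% of genes, with a median of -0.48 against -0.02 over all genes. Ninj2 was at 6.21, 9.96 and 4.34 CPM at day 7, all below the lowest sham library, a position that 9.73% of all genes had. Its log2 fold change was -1.21 ± 0.31 (adjusted p = 0.252 in edgeR). Opalin was at 170, 124 and 85.0 CPM and Mog at 166, 245 and 94.3 CPM, and both overlapped with sham. Their log2 fold changes were -0.71 ± 0.38 for Opalin and -0.59 ± 0.50 for Mog. Mobp and Myrf had values near 0, with log2 fold changes of 0.05 ± 0.38 and 0.10 ± 0.47.

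At day 14, 0 of the 9 genes passed edgeR's test, and 0% of all genes passed as lower. At an unadjusted p under 0.05 there was 1, Ninj2, beside 0.967% of genes, and DESeq2 and limma voom each called 0. All 9 log2 fold changes were negative, though that of Myrf was 0.014 without TMM scaling, beside 48.8% of genes, with a median of -0.48 against 0.01 over all genes. Ninj2 was at 10.2, 9.83 and 7.27 CPM at day 14, again below the lowest sham library, as were 4.77% of all genes. Its log2 fold change was -0.79 ± 0.31 (adjusted p = 0.629 in edgeR). Mog was at 116, 132 and 135 CPM, with a log2 fold change of -0.98 ± 0.51 (adjusted p = 0.731 in edgeR), and overlapped with sham through the low sham replicate 2. Aspa, at 91.6, 90.5 and 93.2 CPM, lay inside the sham range. Ninj2 was the 1 gene of the 9 that was lower in all 9 SCI libraries than in all 3 sham libraries, which 1.73% of all genes were.

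**Figure D4:**
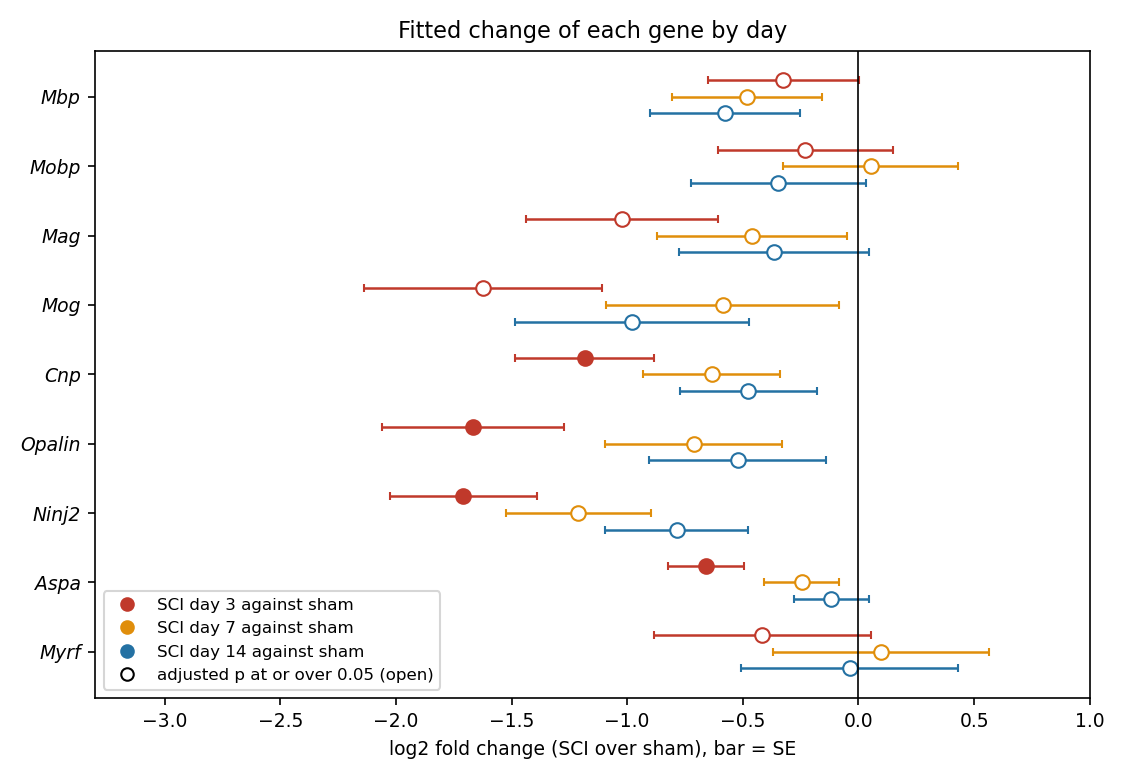
Log2 fold change of each of the 9 genes at day 3, day 7 and day 14 against sham (points) with its standard error (bars). All 9 points are below 0 at day 3, from -1.71 for Ninj2 to -0.23 for Mobp, and 4 pass the threshold there, while 0 pass at day 7 or day 14.

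Between the days of injury, 0 of the 9 genes and 0% of all genes passed edgeR's test in each of the 3 comparisons. At an unadjusted p under 0.05 there were 2 of the 9 for day 7 against day 3, beside 14.8% of genes, 4 for day 14 against day 3, beside 17.9%, and 0 for day 14 against day 7, beside 3.67%. The median log2 fold change of the 9 was 0.51, 0.64 and 0.10 in these comparisons, against -0.04, 0.01 and 0.01 over all genes. DESeq2 called Aspa higher at day 14 than at day 3, among 1096 genes called in all. It called none of the 9 in the other 2 comparisons, and limma voom called none of the 9. For day 14 against day 3, Opalin, Ninj2, Cnp and Aspa had all 3 day 14 libraries above all 3 day 3 libraries, as did 6.78% of all genes. Their log2 fold changes were 1.14 for Opalin, 0.92 for Ninj2, 0.71 for Cnp and 0.54 for Aspa (adjusted p between 0.199 and 0.259 in edgeR). For day 7 against day 3, the groups were separate for Aspa, higher at day 7, as for 6% of all genes. These comparisons share the day 3 libraries with the comparison of day 3 with sham.

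Ratios of 2 genes within a library do not depend on its scaling. Of the 36 pairs of the 9 genes, 5 had ratios of CPM that were separate between all 9 SCI libraries and all 3 sham libraries. The ratios given below are of FPKM. Mobp over Mog was 11.0 to 51.3 at day 3, against 6.42 to 7.01 in sham, and it was 7.48 to 15.0 at day 7 and 7.70 to 13.4 at day 14. Myrf over Mog was 0.733 to 0.978 at day 3, against 0.322 to 0.437 in sham, and it was 0.470 to 0.859 at day 7 and 0.565 to 0.817 at day 14. Mog was thus low relative to Mobp and Myrf on every day. Mbp over Mog was 81.8 to 482 at day 3, against 51.0 to 81.7 in sham, but at 48.5 to 93.9 at day 7 and 69.0 to 87.4 at day 14 it overlapped with sham. Of all tested genes, 4.68% had a ratio to Mog that was higher in all 9 SCI libraries, beside 2 of the 8 genes compared with Mog here. No such share was taken for pairs without Mog. The other 3 pairs were Mag over Myrf, lower after SCI, Ninj2 over Aspa, lower, and Cnp over Ninj2, higher. The 5 pairs were singled out after their values were seen.

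Olig1 and Olig2, transcription factors carried by oligodendrocytes and their progenitors, gave another scale, chosen after the values were seen. Olig2 was at 76.3, 66.3 and 13.3 CPM at day 3, against 72.1, 43.6 and 69.3 CPM in sham, and neither gene passed edgeR's test on any day. Mog over the summed CPM of Olig1 and Olig2 was 0.401, 0.436 and 0.644 at day 3, against 1.41, 0.849 and 1.01 in sham. The same ratio was 0.598, 0.733 and 0.625 at day 7 and 0.578, 0.595 and 0.472 at day 14, so that all 9 SCI libraries lay below all 3 sham libraries. Opalin did so too, with 0.242 to 0.781 over the 9 SCI libraries, against 0.902 to 0.973 in sham. These were 2 of the 9 genes, beside 0.775% of all genes tested.

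By day, the ratio to Olig1 and Olig2 was separate and lower for 2 of the 9 genes at day 3, beside 5.53% of all genes, for 5 at day 7, beside 5.1%, and for 6 at day 14, beside 4.1%. At day 7 the 5 were Mog, Mag, Cnp, Opalin and Ninj2, and at day 14 Mbp joined them. Aspa, Mobp and Myrf were not separate on any day. Both Olig genes were lowest in SCI day 3 replicate 3, at 34.5 CPM for Olig1 and 13.3 CPM for Olig2, where the ratio of Mbp was 617 against 109 to 143 in sham. Against Sox10, a factor that Schwann cells share, 6 of the 9 genes were separate and lower at day 3, beside 11.8% of all genes, 0 at day 7, beside 1.31%, and 2 at day 14, beside 3.28%. The count by day thus differed between the 2 scales.

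**Figure D5:**
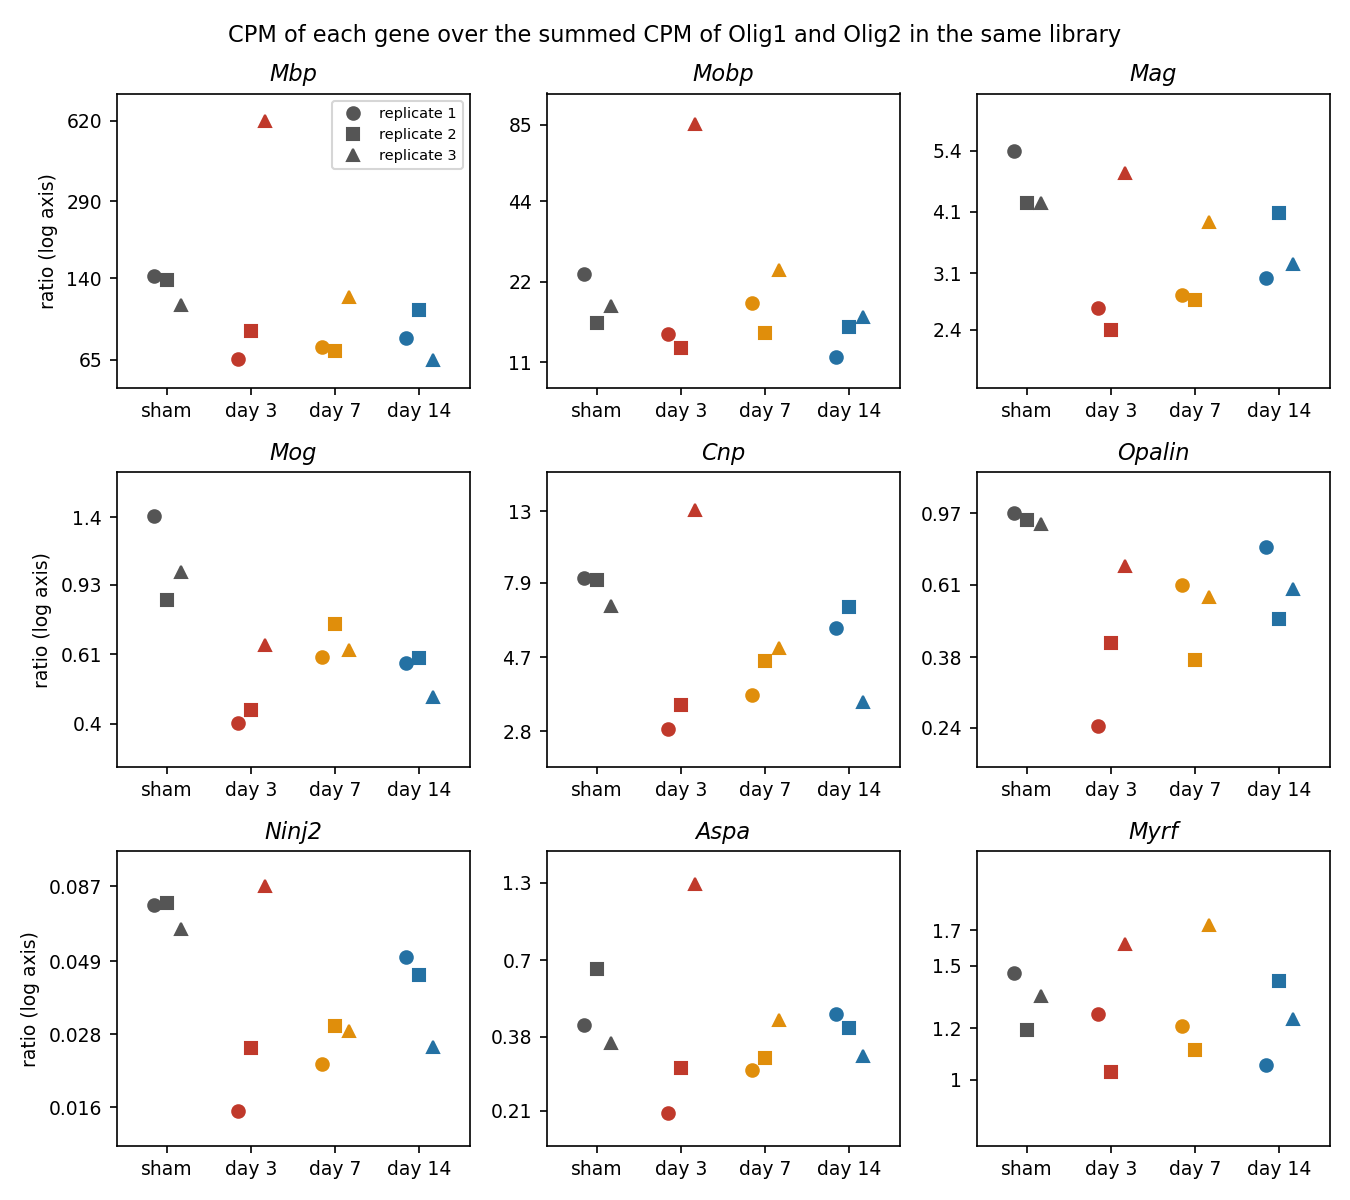
CPM of each of the 9 genes divided by the summed CPM of Olig1 and Olig2 in the same library (x axis, group; y axis, ratio on a log scale; each point is 1 library, shaped by replicate). Mog and Opalin lie below the sham libraries in all 9 SCI libraries, and the ratio of Mbp is 617 in SCI day 3 replicate 3.

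Other genes of the lineage were read from lists, and their calls were not recomputed with libraries left out. The count over all genes at day 3 ranged from 1 to 7087 with 1 library left out. Of 30 further genes of mature oligodendrocytes, 4 passed as lower at day 3, beside 1.2% of all genes, and 0 passed as higher. A negative log2 fold change was found for 23, beside 48.1% of genes, and the median of the 30 was -0.81. The 4 were Gamt, which makes creatine (-1.36, adjusted p = 0.0324 in edgeR), the plexin Plxnb3 (-0.83, 0.0378), Ermn, a cytoskeletal protein of the sheath (-1.84, 0.0445), and the tetraspanin Tspan2 (-1.43, 0.0472). At days 7 and 14, 0 of the 30 passed, and the medians were -0.42 and -0.33.

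Genes of myelin lipid and sterol synthesis gave 0 calls of 18 tested on each of the 3 days. Their medians were -0.48 at day 3, -0.70 at day 7 and -0.68 at day 14, with 16, 18 and 18 negative values. Among those with the smallest p at day 3 were Mvd and Dhcr7, enzymes of sterol synthesis, at -0.83 (adjusted p = 0.0932 in edgeR) and -0.72 (adjusted p = 0.142 in edgeR), and Gal3st1, which makes sulfatide, at -0.73 (adjusted p = 0.143 in edgeR).

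Earlier stages of the lineage had smaller medians at day 3. Of 10 lineage transcription factors 0 passed, with a median of -0.42, and Sox8 had the smallest p, at -1.34 (adjusted p = 0.0649 in edgeR). Of 11 genes of newly formed oligodendrocytes 1 passed as lower, the receptor gene Gpr17, by 2.41 on the log2 scale (adjusted p = 0.0492 in edgeR). The median of the list was -0.14. Of 12 progenitor genes 0 passed and 8 had a negative log2 fold change, with a median of -0.33. Pdgfra, the growth factor receptor of progenitors, had the highest log2 fold change of these 12, at 0.84 ± 0.32 (adjusted p = 0.103 in edgeR). It was highest in SCI day 3 replicate 3, at 206 CPM, the library where Olig2 was lowest, at 13.3 CPM. Differences between these lists were not tested. Among other cells at day 3, 4 of 9 astrocyte markers passed as lower, led by Aldh1l1 (-1.86, adjusted p = 0.00534 in edgeR). Of 8 endothelial markers 6 passed as higher, with a median log2 fold change of 1.62. Of 10 microglia and macrophage markers 0 passed, although their median was 1.504 and only 2 had a negative value. These 10 summed to 288 to 1189 CPM at day 3, against 199 to 275 CPM in sham. Their median was 2.08 at day 7 and 1.56 at day 14, and 0 passed on either day.

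The 9 genes did not vary as 1 block. Across the 12 libraries, the Pearson correlation of log2 CPM with the mean of the other 8 was 0.929 for Mog, 0.917 for Cnp and 0.888 for Mag, and 0.816 for both Ninj2 and Opalin. It was 0.766 for Aspa, 0.640 for Myrf, 0.399 for Mobp and 0.356 for Mbp. The closest pairs were Mog with Mag and Cnp with Ninj2, at 0.949 each, and the least alike were Mbp and Myrf, at -0.079. These values describe libraries that share differences of group and of makeup.

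Of 11819 genes with a mean of at least 5 CPM, those most like the mean of the 9 across the 12 libraries included Map6d1 (r = 0.974), Fam135a (0.963), Tmem125 (0.962), Myo6 (0.950), Dbndd2 (0.950), Nipal4 (0.947), Hip1r (0.946), Hdhd3 (0.944) and Sbf1 (0.943). Tmem125 belongs to the list of mature oligodendrocyte genes. At day 3, Hdhd3 passed as lower (adjusted p = 0.0391 in edgeR).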

How the data were processed

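The 12 samples of lumbar cord from rats were profiled by RNA sequencing, with SMARTer mRNA-Seq libraries from column-purified total RNA, per the labels. Per the file headers, the authors deposited unnormalised counts of reads by gene. They also deposited FPKM, scaled for gene length and library total, per the file headers. FPKM were proportional to the counts within 0.83% over 9502 genes. No aligner or strand setting is stated there, so overlapping genes may share reads. The submitters' processing notes list the mouse builds GRCm38 and mm10 while identifiers are rat, so no coordinates of the table are given.

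Genes were filtered with filterByExpr, which left 18714 and removed 4812, and scaled with TMM. All 12 libraries were fitted together in edgeR 4.0.16, with a mean for each group (R 4.3.3, 8 residual degrees of freedom). Each comparison used the quasi-likelihood test with Benjamini-Hochberg adjustment over all tested genes and a limit of 0.05. A standard error is the log2 fold change over the square root of F and restates the test. CPM uses library totals, from 63010295 to 79072710 counts. No library was a copy of another (lowest chi-square per gene 63.1). Alternatives used DESeq2 1.42.0, limma voom 3.58.1, other scaling and filters, a replicate block, and libraries left out. The test was checked on simulated data for day 3 against sham. It found 8% of 2-fold, 50% of 4-fold, 74% of 8-fold and 72% of 16-fold changes, with 3 false among 105 calls. Most 2-fold changes were thus missed there. In the simulation each gene was drawn independently around its mean over all libraries, with 200 genes changed at day 3. Differences of makeup shared by many genes of a library were not simulated. The rates and the false calls may therefore differ in the real comparison. The 14 lists held 171 symbols, of which 7 were not in the table.

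The members and lists were chosen with earlier results of these data known. Named were all 9 genes, up to 4 genes of a list with the smallest p at day 3, fixed markers, and, of the 10 genes most correlated with the mean z-score of the 9 (log2 CPM, prior count 2), 9. Some genes that this rule takes are not reported here.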

Additional observations from a re-analysis of the deposited data

How the results depend on the processing

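Each value was recomputed under 24 alternatives, 12 of which left out 1 library. Of the 1296 values of the 9 genes, 1182 kept their direction and side of the threshold, 56 lost a call, 9 gained one and 49 changed sign, 0 of them with an adjusted p under 0.05. At day 3 against sham the log2 fold changes of Ninj2, Opalin, Cnp, Aspa, Mog, Mag and Mbp were negative under all 24. Their sizes varied. The values nearest 0 were -1.23, -1.04, -0.72, -0.51, -0.64, -0.34 and -0.046, in that order. The slopes of the 9 genes on the Schwann cell score ranged from -0.63 for Mog to -0.069 for Mbp per log2 unit. Only that of Mog passed (adjusted p = 0.0143 in edgeR). Where a count or a sign changed, the cause was not tested beyond the libraries named. With replicate numbers as a block the calls at day 3 against sham were 8, with 0 of the 9 genes, and 1 each at day 7 and day 14 against sham and for day 7 against day 3. No pairing by number was seen: correlations of same-numbered deviations were -0.34 to 0.25, and 3 of 12 libraries were closest to their own number. With 3 libraries a group, this cannot exclude a pairing. Genes called at day 3 against sham were 1254, against 5150 by DESeq2 (1236 shared), 6232 by limma voom (1246 shared), 733 without the filter (2 of the 9 genes), 1 with only the 2 groups fitted (0 of the 9), 6787 without the 3 libraries with most Scn10a, 3 without the 2 richest in Schwann cell transcripts (0), 1 without the 2 poorest in neuronal transcripts (0), 8 with the Schwann cell score as a covariate (0), and 1 to 7087 with 1 library left out (0 to 5 of the 9). At day 7 against sham they were 3, against 513 (DESeq2), 276 (voom), each with 1 of the 9, 89 (2 groups), 8 (without Scn10a libraries), 0 (without Schwann libraries) and 1 to 7 (1 left out). At day 14 against sham they were 3, against 207, 9, 0 with 2 groups, 1 without Schwann libraries, 1 without neuron-poor libraries, 1 with the covariate and 1 to 3 with 1 left out. For day 7 against day 3 they were 0, against 245 (DESeq2), 1 (voom), 3222 (without Scn10a libraries) and 0 to 3605 (1 left out). For day 14 against day 3 they were 0, against 1096 (DESeq2), 2088 (without Scn10a libraries), 2 (covariate) and 0 to 4342 (1 left out). For day 14 against day 7 they were 0, against 50 by DESeq2.

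Sign changes, all of log2 fold changes that passed no test, were these. With the Schwann covariate, chosen after the values were seen, they were Mobp 0.32 and Myrf 0.30 at day 3 against sham, Mag 0.23, Mobp 0.040 and Myrf 0.61 at day 14 against sham, Mog -0.083, Mag -0.17, Mobp -0.26, Ninj2 -0.077 and Myrf -0.23 for day 7 against day 3, and Mbp 0.012, Mog 0.62 and Myrf 0.54 for day 14 against day 7. Without the Schwann-rich libraries they were Mobp -0.25 and Myrf -0.17 at day 7 against sham, Mbp 0.12 for day 7 against day 3, and Mbp 0.021 and Myrf -0.024 for day 14 against day 3. Without the neuron-poor libraries they were Mbp 0.15 for day 7 and 0.051 for day 14 against day 3, and Mobp 0.34 for day 14 against day 3. Without the Scn10a libraries they were Mobp 0.060 and Myrf 0.20 at day 14 against sham, Mobp 0.10 for day 14 against day 3, and Cnp -0.21 and Myrf 0.074 for day 14 against day 7. Myrf at day 14 against sham was 0.014 without TMM and 0.030 with the block, and Mobp at day 7 against sham was -0.0064 by voom. With 1 library left out, Mobp ranged from -0.53 to 0.15 at day 3, -0.25 to 0.43 at day 7 and -0.65 to 0.030 at day 14 against sham, and Myrf from -0.17 to 0.34 at day 7 and -0.30 to 0.21 at day 14. For day 7 against day 3, Mbp ranged from -0.29 to 0.12. For day 14 against day 3, Mbp ranged from -0.40 to 0.021, Mobp from -0.38 to 0.091 and Myrf from -0.024 to 0.95. For day 14 against day 7, the ranges were -0.059 to 0.26 for Mag, -0.053 to 0.44 for Cnp, -0.031 to 0.50 for Opalin, -0.023 to 0.30 for Aspa, -0.28 to 0.0092 for Mbp and -0.27 to 0.044 for Myrf. Ninj2 had the fewest counts of the 9.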
